A study of Mus musculus with 21 samples.

Results

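The 10 genes described here encode ADAM proteins of mouse spermatogenic cells and sperm: *Adam1a*, *Adam1b*, *Adam2*, *Adam3*, *Adam5*, *Adam18*, *Adam24*, *Adam26a*, *Adam30* and *Adam32*. They were looked up by symbol among the 24456 genes of each count file, and all 10 were found with counts in all 21 libraries. The libraries hold RNA of fractionated testis cells and of spermatozoa, from wild-type mice (H2al2 WT) and from mice that lack the histone variant H2A.L.2 (H2al2 KO). For each of pachytene spermatocytes, round spermatids and condensing spermatids there were 3 WT and 3 KO replicates, and for spermatozoa 2 WT replicates and 1 KO replicate. The labels give no strain, age or number of animals per fraction. P-values therefore measure the spread between these libraries, which may be partly technical.

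ADAM proteins are membrane proteins with a metalloprotease-like and a disintegrin domain. Many of them are made in male germ cells, are cut or paired while the spermatid and the sperm mature, and end on the sperm head. ADAM2 pairs with ADAM1B on sperm (fertilin) and with ADAM1A in the endoplasmic reticulum of spermatogenic cells. ADAM3 (cyritestin) is needed for sperm to pass from the uterus into the oviduct and to bind the zona pellucida, and it reaches the sperm surface only when a set of chaperones and partner proteins is intact. ADAM24 (testase 1) and ADAM26A (testase 3) belong to a group of testis ADAMs that keep the zinc site of an active protease.

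The genes fell into 2 structural groups of 5 (annotation of mm10, GENCODE M21). *Adam1a*, *Adam1b* and *Adam30* have 1 exon and *Adam24* and *Adam26a* have 2, whereas the main transcripts of *Adam2*, *Adam3*, *Adam5*, *Adam18* and *Adam32* have 20 to 22. The coding sequences of the first group hold the complete zinc-binding site of the metalloprotease domain, and those of the second group hold only 1 of its 5 fixed codons. The site is shown for 6 members, since an ADAM needs it to act as a protease. Each stretch is 33 bases of the coding strand, read from the annotated transcript, with the codons that encode the fixed histidines, glutamate and glycine in capitals. The stretch of *Adam1b* is identical to that of *Adam1a*.
Adam1a: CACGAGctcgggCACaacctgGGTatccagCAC
Adam24: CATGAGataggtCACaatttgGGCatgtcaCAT
Adam26a: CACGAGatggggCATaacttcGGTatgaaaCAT
Adam30: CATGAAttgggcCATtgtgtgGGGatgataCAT
Adam2: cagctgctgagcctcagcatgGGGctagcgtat
Adam3: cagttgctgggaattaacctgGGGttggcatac

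Of the second group, *Adam18*, *Adam3*, *Adam5* and *Adam32* lie side by side on the minus strand of chromosome 8, from 24602246 to 24948804, with 1397 to 12073 bases between neighbours. *Adam2* is on chromosome 14, from 66027329 to 66077733, also on the minus strand. *Adam24* (40675077 to 40682199, plus strand) and *Adam26a* (43568278 to 43576707, minus strand) are elsewhere on chromosome 8, and *Adam30* is on chromosome 3, from 98160660 to 98164169 on the plus strand. *Adam1b* (121500098 to 121503435) and *Adam1a* (121518576 to 121522071) are neighbours on the minus strand of chromosome 5. The translations of *Adam1a* and *Adam1b* are 72.6% identical and those of *Adam24* and *Adam26a* 47.7%, while those of *Adam2* and *Adam3* are 36.3% identical.

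Near-identical copies limit 3 of the genes. The authors did not count reads that aligned to more than 1 place. Of all 75-base windows of the transcript, as long as 1 read, 50.1% of *Adam1a* occur in *Adam1b* or the readthrough gene *Gm42878*, 31.1% of *Adam1b* occur in *Adam1a*, and 25.7% of *Adam26a* occur in *Adam26b*, *Adam34* or 2 pseudogenes (*Gm5346*, *Gm5347*). Their counts are lowered by an unknown amount and are uncertain as levels. *Adam1a* also overlaps *Gm42878* and *Mapkapk5* on its own strand. Windows shared with *Gm42878* at this overlap lie at the same place of the genome and are no copies. The 50.1% does not separate them from the windows in *Adam1b*. The other 7 genes share no such window with another gene.

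Counts on genes ranged from 5799060 to 8201682 in the 18 libraries of the 3 stages and from 2772995 to 3450580 in spermatozoa, and the 10 genes took 0.354% to 0.586% of the counts of the former. The labels were checked on *H2afb1*, the gene of H2A.L.2, which had 206 ± 5.30 normalized CPM (read counts scaled to library size; SD, n = 3) in WT and 23.8 ± 2.68 in KO round spermatids, a log2 fold change of -3.10 (adjusted p = 3.4e-08, edgeR). Pachytene markers summed to 1811 to 2241 normalized CPM in pachytene spermatocytes and to 634 to 881 in both spermatid stages. Markers of elongating spermatids, such as the protamines, did not separate the 2 spermatid stages: the 8 genes summed to 23790 to 30680 in round and to 26340 to 39570 in condensing spermatids. Condensing fractions held more RNA of Sertoli cell markers, 402 to 568 normalized CPM against 27.9 to 53.9 in round spermatids (9 markers, none at 0), and more of 6 Leydig cell markers, 77.6 to 203 against 6.05 to 12.8. Pachytene fractions also held more of the Leydig cell markers than round spermatids, 72.1 to 144 in WT and 23.1 to 97.5 in KO. The part of this RNA in the changes from pachytene to round spermatids was not tested. WT round spermatid replicates 2 and 3 differed in these 10 genes by less than the sampling noise (chi-square 0.744 per gene, where all other replicate pairs had 2.04 to 104). Over 5617 moderately abundant genes they were also the closest pair (1.06 per gene, where the others had 1.9 to 12.2), but the most abundant genes differed beyond sampling noise (8.76 per gene). They were kept as separate libraries, and each comparison that uses them was repeated with their counts summed as 1 sample.

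RNA of all 10 genes was found in the pachytene fractions, and their summed level was highest in round spermatids. The WT pachytene fractions also held RNA of 7 round spermatid markers, 426 to 702 normalized CPM against 1904 to 2074 in WT round spermatids, and its part in the pachytene levels was not tested. In WT the sum went from 3729 ± 234 normalized CPM (SD, n = 3) at the pachytene stage to 5709 ± 243 in round spermatids, and was 4111 ± 183 in condensing spermatids and 1046 ± 80.2 (SD, n = 2) in spermatozoa. Of the 10 genes, 8 had their highest WT mean in round spermatids, and *Adam2* and *Adam18* had theirs in pachytene spermatocytes. For *Adam18* this turned with DESeq2 size factors, which gave 144 normalized CPM at the pachytene and 148 at the round stage. *Adam3*, *Adam5* and *Adam32* together made up 72.5% of the sum in round spermatids.

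**Figure D1:**
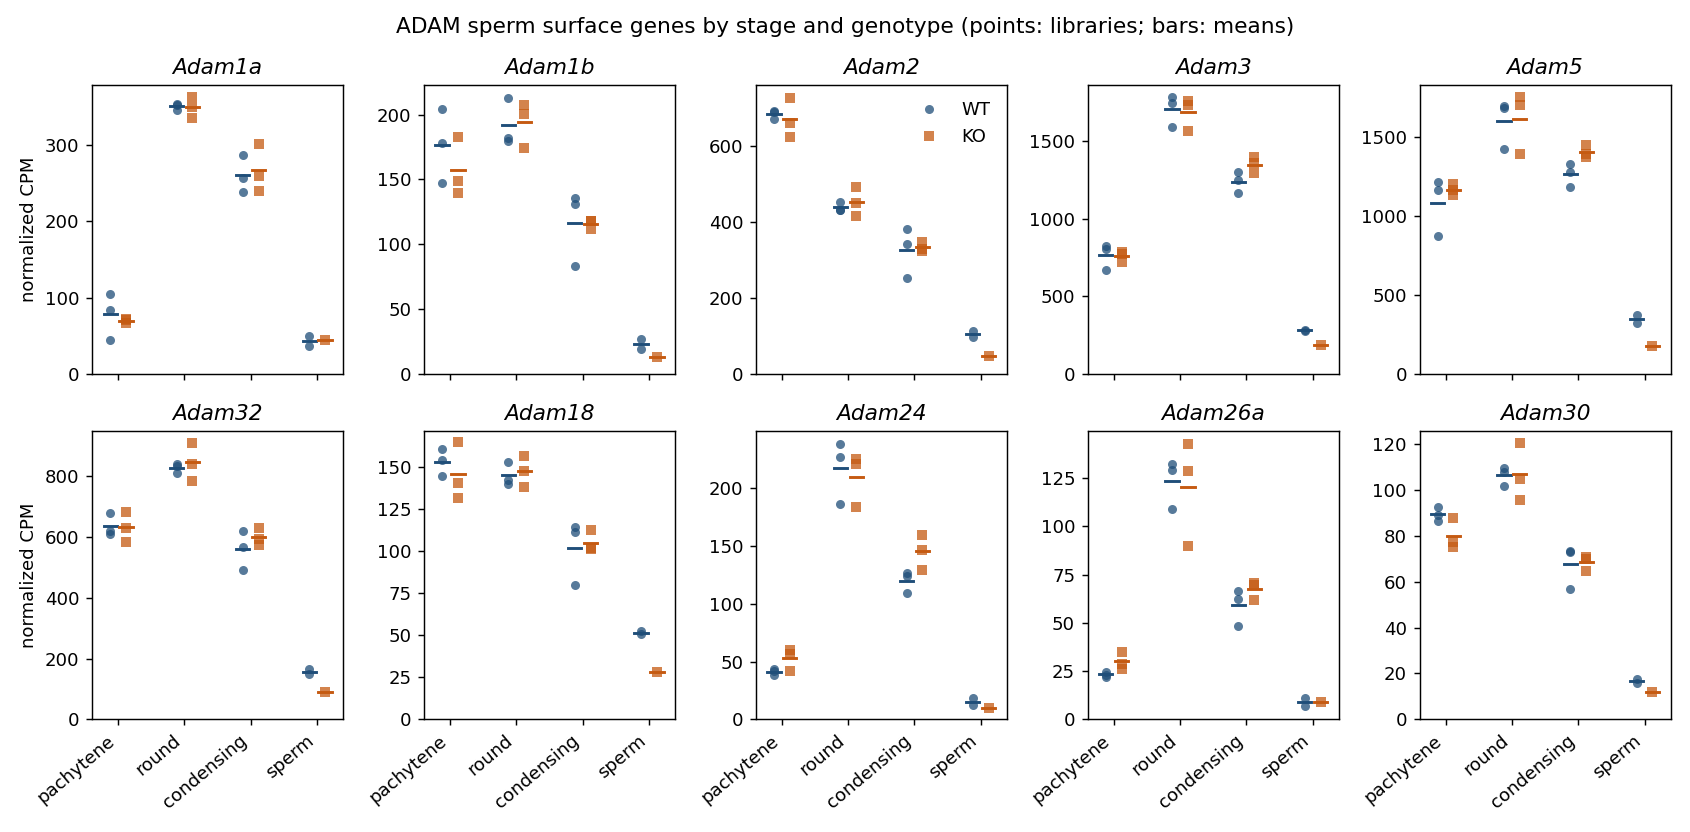
Normalized CPM (y axis, linear, from 0) of each gene in every library by stage (x axis), with circles for WT and squares for KO libraries and a bar for the mean. Most genes peak in round spermatids, *Adam2* is highest in pachytene spermatocytes, and in the 3 stages with replicates WT and KO libraries overlap except for *Adam26a* at the pachytene and *Adam5* and *Adam24* at the condensing stage.

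Levels of different genes were compared per kilobase of the main transcript. In WT round spermatids *Adam3* was first with 682 ± 41.3 normalized CPM per kilobase (SD, n = 3), followed by *Adam5* with 626 ± 59.8, and the libraries of these 2 overlapped. *Adam32* (338 ± 6.32), *Adam2* (172 ± 5.21) and *Adam1a* (101 ± 1.34) came next, each separated from its neighbours in every library. *Adam18* (61.4 ± 2.88) overlapped with *Adam24* (75.2 ± 9.39) before it and with *Adam1b* (57.5 ± 5.52) after it, and *Adam26a* (49.6 ± 5.14) and *Adam30* (30.3 ± 1.17) were lowest. The place of *Adam1a* depends on the length used: over all annotated exons of the gene, which include a readthrough transcript, it had 46.8 normalized CPM per kilobase and fell from place 5 to place 9. In WT pachytene spermatocytes the order began with *Adam5* (424 ± 72.2), *Adam3* (306 ± 33.2), *Adam2* (268 ± 4.15) and *Adam32* (259 ± 15.2). *Adam3* overlapped with *Adam2*, and *Adam2* with *Adam32*, and *Adam26a* was last with 9.36 ± 0.546.

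From WT pachytene spermatocytes to round spermatids, 7 of the 10 genes rose, 1 fell and 2 did not pass the test (edgeR's quasi-likelihood test, Benjamini-Hochberg adjustment over 14011 genes, adjusted p under 0.05). Of all genes tested, 34.4% rose and 35.9% fell. The median log2 fold change was 0.50 over the 10 genes and -0.02 over all genes. The 7 that rose were higher in every round spermatid library than in every pachytene library, as were 35.1% of all genes tested. *Adam2* was lower in every round spermatid library, as were 38.1%.

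The largest increases were those of the testase genes and of *Adam1a*. *Adam24* had 43.2, 41.5 and 38.4 normalized CPM in the 3 WT pachytene libraries and 187, 227 and 238 in the 3 round spermatid libraries. The groups were far apart (log2 fold change 2.44, standard error 0.13, adjusted p = 1.36e-08, edgeR). *Adam26a* started lower, at 24.8, 23.0 and 22.1 normalized CPM, and reached 109, 132 and 129. Its log2 fold change was 2.44 as well (standard error 0.14, adjusted p = 2.61e-08, edgeR). *Adam1a*, the partner of ADAM2 in the endoplasmic reticulum, had 83.9, 105 and 44.7 normalized CPM in pachytene spermatocytes and 354, 354 and 346 in round spermatids (log2 fold change 2.21, standard error 0.23, adjusted p = 1.92e-06, edgeR).

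WT pachytene replicate 3, which had the low value of *Adam1a*, also stood apart in other RNA. Its 8 elongating spermatid markers summed to 2230 normalized CPM, against 5509 and 5233 in replicates 1 and 2 and 2934 to 3190 in KO pachytene spermatocytes, and its *H2afb1* count was 99, against 339 and 307. The part of these spermatid RNAs in the *Adam1a* values was not tested. Without replicate 3 the same 8 genes, less *Adam30*, were called.

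Among the genes without the zinc site, *Adam3* rose most. It had 823, 669 and 801 normalized CPM in pachytene spermatocytes and 1588, 1782 and 1746 in round spermatids, a 2.28-fold rise (log2 fold change 1.19, standard error 0.13, adjusted p = 2.54e-06, edgeR). Its neighbours on chromosome 8 changed less. *Adam5* went from 1165, 873 and 1216 to 1427, 1698 and 1686 normalized CPM (log2 fold change 0.59, standard error 0.15, adjusted p = 0.00276, edgeR), and *Adam32* from 678, 608 and 620 to 839, 834 and 810 (log2 fold change 0.41, standard error 0.12, adjusted p = 0.00737, edgeR). *Adam18*, the fourth gene of that row, had 154, 161 and 144 normalized CPM in pachytene spermatocytes and 153, 140 and 142 in round spermatids. These groups overlapped, and the 95% interval of its log2 fold change ran from -0.34 to 0.25 (adjusted p = 0.772, edgeR).

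The genes of fertilin behaved differently from *Adam3*. *Adam2* fell from 687, 691 and 671 normalized CPM to 453, 430 and 430 (log2 fold change -0.61, standard error 0.14, adjusted p = 0.00162, edgeR), and was the only one of the 10 to fall at this step. *Adam1b* had 178, 205 and 147 normalized CPM in pachytene spermatocytes and 213, 182 and 180 in round spermatids, with overlap between the groups (log2 fold change 0.15, 95% interval -0.23 to 0.53, adjusted p = 0.461, edgeR). *Adam30*, a testis ADAM with the zinc site, rose from 86.6, 92.4 and 88.9 to 110, 108 and 102 normalized CPM, a log2 fold change of 0.28 (standard error 0.12) with an adjusted p of 0.0457 (edgeR). The call of *Adam30* lay at the threshold and was lost when any 1 library of the pachytene or round spermatid group was left out.

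**Figure D2:**
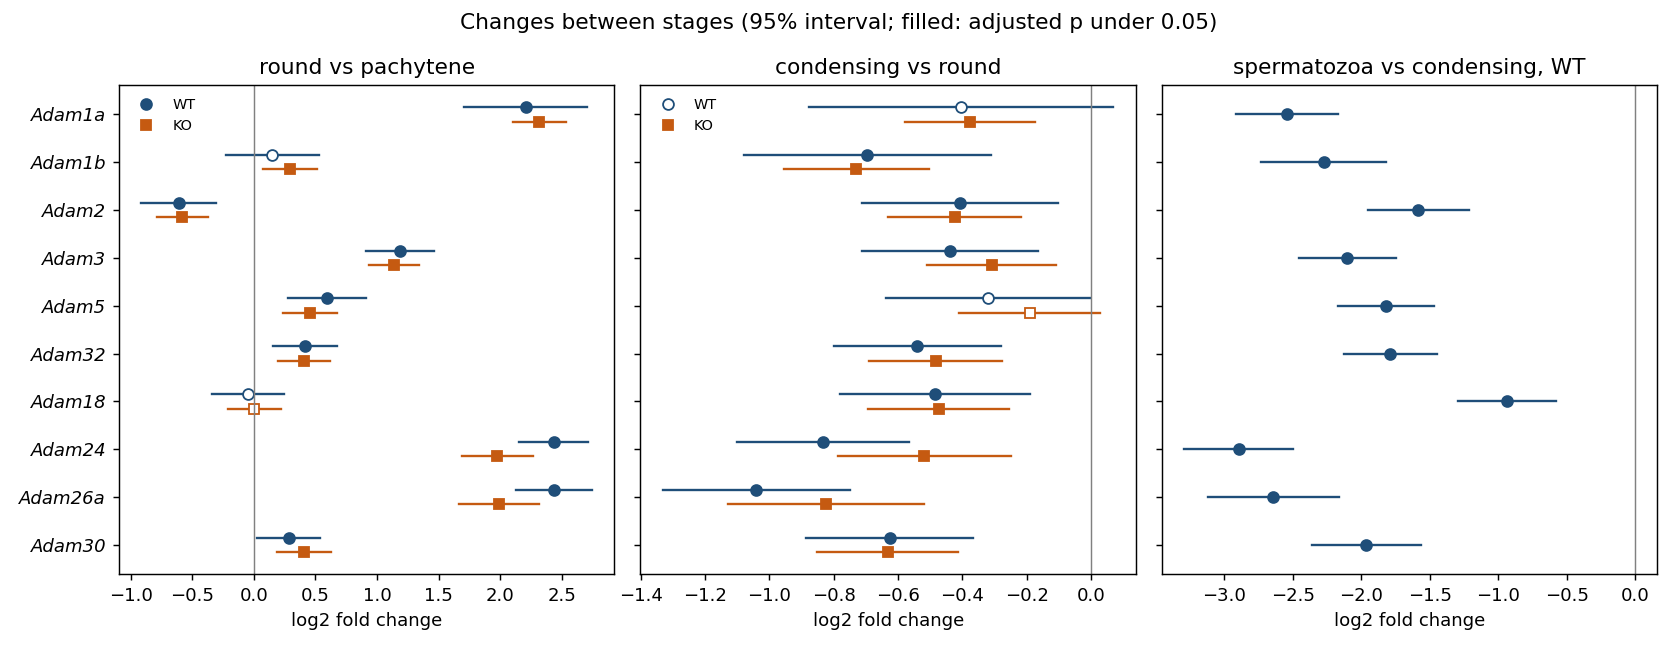
Log2 fold change (x axis) of each gene between consecutive stages with its 95% interval, circles for WT and squares for KO; filled symbols passed the test. *Adam1a*, *Adam24* and *Adam26a* rise by over 2 in WT round spermatids, *Adam2* falls there, and all estimates are below 0 in condensing spermatids and in WT spermatozoa.

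From WT round to condensing spermatids, 8 of the 10 genes fell, 0 rose and 2 did not pass the test, where 21.8% of the 14011 genes tested fell and 28.3% rose. All 10 were lower in every condensing spermatid library than in every round spermatid library, as were 29.0% of all genes. The median log2 fold change was -0.51 over the 10 genes and 0.04 over all genes.

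*Adam26a* and *Adam24*, which had risen most, also fell most. *Adam26a* had 66.3, 62.2 and 48.5 normalized CPM in condensing spermatids (log2 fold change -1.04, standard error 0.14, adjusted p = 5.95e-05, edgeR) and *Adam24* had 124, 126 and 110 (log2 fold change -0.83, standard error 0.12, adjusted p = 0.000164, edgeR). Both stayed above their pachytene levels. *Adam1b* fell to 135, 131 and 83.3 normalized CPM (log2 fold change -0.70, adjusted p = 0.00604, edgeR), and *Adam30* to 73.1, 73.3 and 56.9 (log2 fold change -0.63, adjusted p = 0.000983, edgeR).

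*Adam3* had 1163, 1251 and 1299 normalized CPM in condensing spermatids (log2 fold change -0.44, standard error 0.13, adjusted p = 0.0117, edgeR). *Adam32* (-0.54, adjusted p = 0.00254, edgeR), *Adam18* (-0.48, adjusted p = 0.0103, edgeR) and *Adam2* (-0.41, adjusted p = 0.0285, edgeR) fell by similar log2 fold changes. *Adam5* (1182, 1327 and 1280 normalized CPM, log2 fold change -0.32, adjusted p = 0.0866, edgeR) and *Adam1a* (257, 239 and 288, log2 fold change -0.40, adjusted p = 0.143, edgeR) missed the threshold. *Adam2* was no longer called without WT condensing replicate 1 or 3, without any 1 of the WT round spermatid libraries, with round spermatid replicates 2 and 3 summed, or with library size only. *Adam3* was not called without condensing replicate 1, and *Adam1a* was called without pachytene replicate 3, which shares the fit.

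WT condensing replicate 3 was the lowest of the 3 condensing libraries for 7 of the 10 genes, and the highest for *Adam1a* and *Adam3*. Its elongating spermatid markers summed to 39510 normalized CPM, against 31220 and 26700 in replicates 1 and 2. The part of this difference between libraries, and of the Sertoli and Leydig cell RNA of the condensing fractions, in the lower levels was not tested. The 7 round spermatid markers were also lower in WT condensing spermatids, at 1301 to 1427 normalized CPM against 1904 to 2074 in WT round spermatids. In bulk RNA a smaller share of cells that express a gene and less RNA per cell cannot be told apart.

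All 10 genes were lower in WT spermatozoa than in WT condensing spermatids (edgeR, 2 and 3 libraries), as were 35.8% of the 15116 genes tested. Of all genes tested, 36.6% were higher. The log2 fold changes ran from -0.93 for *Adam18* (standard error 0.17, adjusted p = 5.89e-05, edgeR) to -2.89 for *Adam24* (standard error 0.19, adjusted p = 2.26e-11, edgeR). *Adam5* had 370 and 322 normalized CPM in spermatozoa and *Adam3* 280 and 278. *Adam18* had 52.5 and 50.6 normalized CPM, *Adam24* 18.1 and 12.8 from 62 and 37 counts, and *Adam26a* 11.1 and 6.94 from 38 and 20 counts. The WT spermatozoa also held RNA of other cells: epididymis markers summed to 1813 and 1932 normalized CPM, against at most 3.51 in WT condensing spermatids (8 markers, *Lcn5* and *Lcn8* at 0), and macrophage markers to 692 and 743, against at most 32.0 (6 markers, none at 0). Their part in the lower levels was not tested.

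The single KO spermatozoa library allows no test of the genotype. Its 10 genes summed to 615 normalized CPM, against 1103 and 989 in the WT libraries, and 8 of the 10 were below both WT values, for example *Adam3* with 186 normalized CPM from 611 counts and *Adam2* with 47.2 from 155 counts. *Adam1a* (43.9) and *Adam26a* (8.83) lay between the WT values. In the same library macrophage markers summed to 3447 normalized CPM and elongating spermatid markers to 10630, against 27690 and 30940 in WT.

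The comparison of H2al2 KO with WT asks whether the genes depend on H2A.L.2. In pachytene spermatocytes, round spermatids and condensing spermatids 0 of the 10 genes passed the test (edgeR), where the share of all genes tested that passed was 0.00%, 0.0156% and 0.00728%. At an unadjusted p under 0.05 there were 2, 0 and 1 of the 10, beside 815 of 12236, 753 of 12804 and 870 of 13734 of all genes tested. The DESeq2 Wald test also called 0 of the 10 in each stage. The genes whose KO and WT libraries did not overlap were *Adam26a* in pachytene spermatocytes, and *Adam5* and *Adam24* in condensing spermatids. These counts of 1, 0 and 2 stand beside 11.4%, 9.86% and 12.1% of all genes tested with no overlap.

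In round spermatids the log2 fold changes of KO over WT lay between -0.04 (*Adam24*) and 0.05 (*Adam2*). *Adam3* had 1565, 1732 and 1760 normalized CPM in the KO libraries, which overlapped with the WT libraries given above, and the 95% interval of its log2 fold change was -0.18 to 0.17. For *Adam1a*, with 363, 350 and 337 normalized CPM, the interval was -0.15 to 0.16. The widest interval at this stage was that of *Adam26a* (-0.36 to 0.31), whose KO libraries had 89.8, 129 and 143 normalized CPM.

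In pachytene spermatocytes the estimates were largest for the testase genes. *Adam24* had 60.4, 56.5 and 41.5 normalized CPM in KO libraries (log2 fold change 0.44, 95% interval 0.07 to 0.80, adjusted p = 0.656, edgeR) and *Adam26a* had 26.2, 35.1 and 28.8 (log2 fold change 0.44, 95% interval 0.10 to 0.78, adjusted p = 0.656, edgeR). Elongating spermatid markers were lower in all 3 KO libraries than in WT replicates 1 and 2 and higher than in WT replicate 3. The other 8 genes had log2 fold changes from -0.10 (*Adam1b*) to 0.16 (*Adam5*). *Adam1a* had the widest interval, from -0.59 to 0.44.

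**Figure D3:**
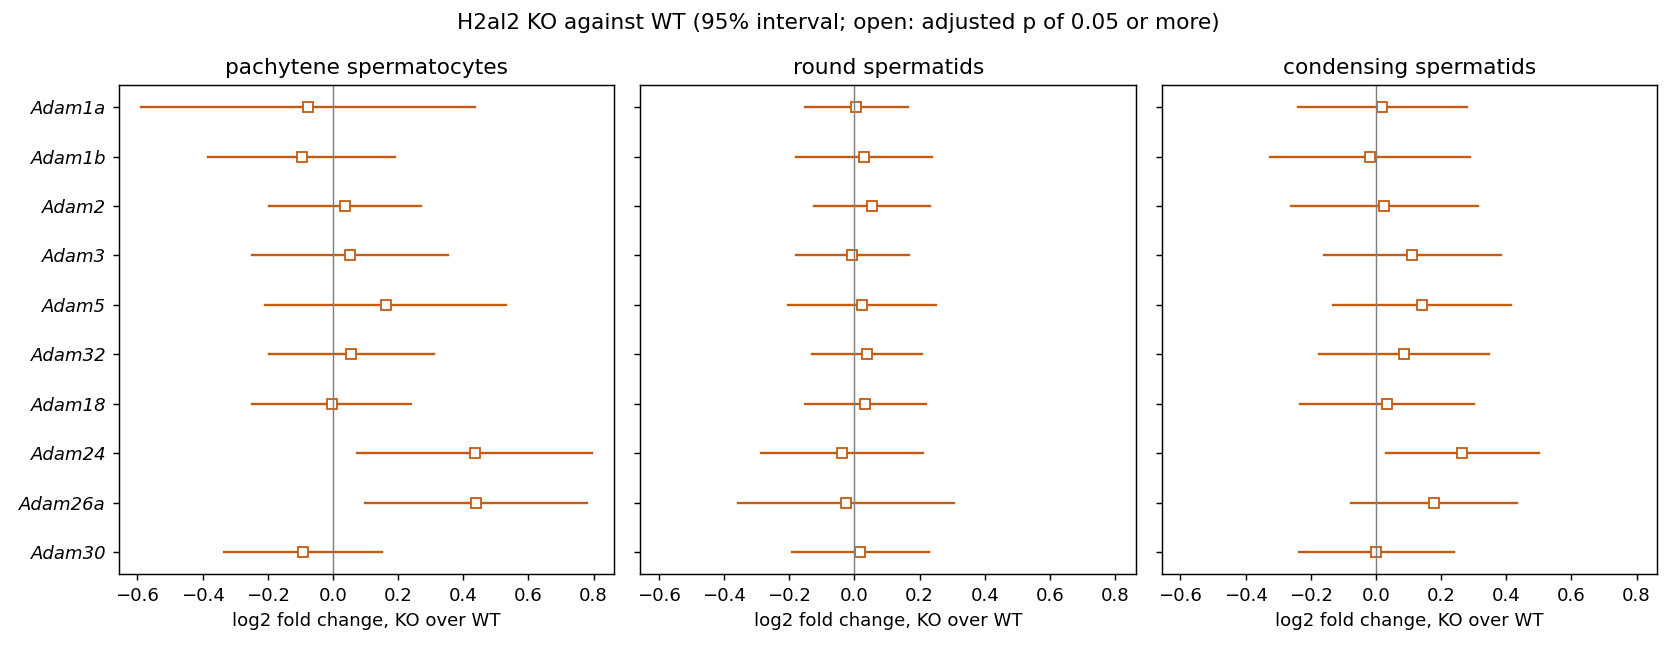
Log2 fold change of KO over WT (x axis) for each gene in 3 stages, as squares with 95% intervals on 1 common scale; open squares did not pass the test. All squares are open, and *Adam24* and *Adam26a* in pachytene spermatocytes and *Adam24* in condensing spermatids have intervals above 0 before adjustment.

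In condensing spermatids 9 of the 10 estimates were above 0, with a median of 0.06 against -0.01 for all genes. The KO condensing fractions held less RNA of the 6 Leydig cell markers (77.6 to 117 normalized CPM against 135 to 203 in WT) and of the 6 macrophage markers (16.3 to 23.8 against 25.2 to 32.0), with none of these at 0, and their part in the estimates was not tested. Sertoli cell markers were lower in KO without overlap in pachytene spermatocytes (14.1 to 23.3 against 33.6 to 38.4) and round spermatids (27.9 to 34.1 against 39 to 53.9). Leydig cell markers were lower in KO round spermatids as well (6.05 to 9.18 against 10.1 to 12.8). KO and WT overlapped in Sertoli cell markers at the condensing stage and in Leydig cell markers at the pachytene stage. The part of these differences in the KO effects was not tested. *Adam24* had 129, 160 and 146 normalized CPM in KO (log2 fold change 0.26, 95% interval 0.03 to 0.50, adjusted p = 0.727, edgeR), and *Adam5* had 1373, 1447 and 1392 (log2 fold change 0.14, 95% interval -0.13 to 0.41, adjusted p = 0.922, edgeR). The KO effect was also compared between stages, the round with the pachytene and the condensing with the round stage, and 0 of the 10 genes were called in either (edgeR on 18 libraries, 0.00% of 14479 genes in both). At an unadjusted p under 0.05 there were 1 and 0 of the 10, beside 1051 and 407 of all 14479 genes, and the DESeq2 Wald test called 0 in both. The 1 was *Adam24*, with an interaction of -0.47 on the log2 scale between round spermatids and pachytene spermatocytes (adjusted p = 0.676, edgeR).

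The stage changes were also measured within the KO. From KO pachytene spermatocytes to round spermatids 8 of the 10 genes rose and *Adam2* fell, where 36.5% of 13877 genes rose and 38.4% fell (edgeR). *Adam18* had a log2 fold change of 0.005 (95% interval -0.21 to 0.22), and *Adam1b*, at 0.29 (adjusted p = 0.0181, edgeR), passed the threshold here but not without KO pachytene replicate 1 or 2 or KO round spermatid replicate 3, in the fit on all 18 libraries or with library size only. *Adam24* and *Adam26a* rose by log2 fold changes of 1.98 and 1.99, and *Adam1a* by 2.32. From KO round to condensing spermatids 9 of the 10 fell and 0 rose, where 24.5% of all genes fell and 29.7% rose. *Adam5* did not pass (log2 fold change -0.19, adjusted p = 0.132, edgeR), except without KO round spermatid replicate 1 (adjusted p = 0.0277, edgeR), and *Adam1a* lost its call in the fit on all 18 libraries (adjusted p = 0.0634, edgeR).

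Across the 18 libraries of the 3 stages the genes did not share 1 profile. *Adam24* and *Adam26a* ran together most closely (Pearson's r = 0.98 of log2 normalized CPM, n = 18 libraries). *Adam1a* followed *Adam24* (r = 0.95), *Adam3* (r = 0.93) and *Adam26a* (r = 0.91) rather than its sequence relative *Adam1b* (r = -0.02). *Adam3* and its neighbour *Adam5* had r = 0.90, and *Adam2* and *Adam18* r = 0.82, whereas *Adam1a* and *Adam2* ran in opposite directions (r = -0.79). Most of this variation is that between stages, and the libraries of a stage share their fraction. *Adam32* was closest to the mean profile of the 10 (r = 0.97) and *Adam2* farthest (r = -0.02), where each gene is itself part of the mean. Outside the 10 genes, the profiles most like that mean among 14479 genes were those of *Adad1*, a germ cell protein related to adenosine deaminases (r = 0.99), *4930550C14Rik* (r = 0.98), *Ap3b1*, *Ccdc89* and *Zfp39* (r = 0.98 each).

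The other ADAM genes served as a comparison. Of 14 further ADAM genes known from male germ cells or the epididymis, 11 were found and 10 tested. All 10 rose from WT pachytene spermatocytes to round spermatids, where 34.4% of all genes tested rose. Their log2 fold changes ran from 2.17 to 2.72, a range that includes *Adam24*, *Adam26a* and *Adam1a* and lies above the other 7 genes. *Adam34* (2.72, adjusted p = 2.32e-07, edgeR), *Adam29* (2.52, adjusted p = 4.4e-08, edgeR) and *Adam26b* (2.48, adjusted p = 7.72e-07, edgeR), all testis ADAMs, changed most. In condensing spermatids 6 of the 10 fell, where 21.8% of all genes tested fell. The largest falls were those of *Adam26b* (-1.09, adjusted p = 0.00113, edgeR), *Adam20* (-1.05, adjusted p = 0.000241, edgeR) and *Adam34* (-0.73, adjusted p = 0.00661, edgeR). *Adam26b* and *Adam34* share sequence with *Adam26a*, so that their counts are uncertain too.

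**Figure D4:**
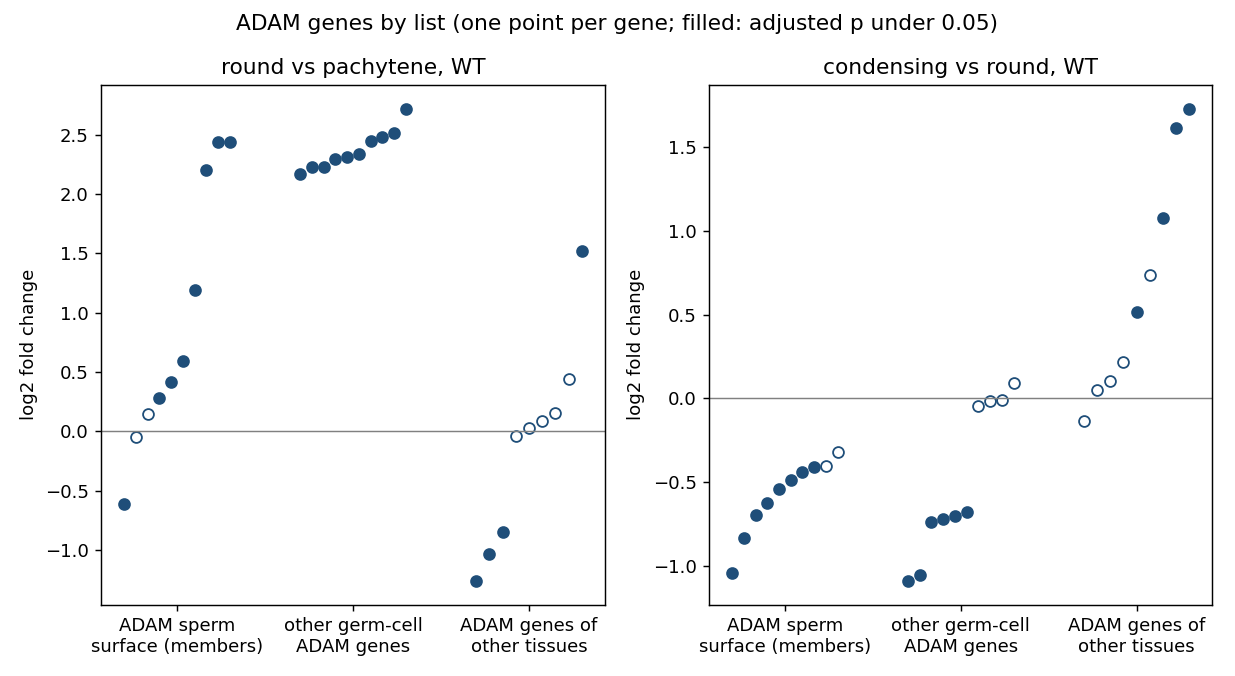
Log2 fold change (y axis) of each tested ADAM gene in WT between consecutive stages, by list (x axis; 1 point per gene, filled where it passed the test). The 10 genes described here, labelled ADAM sperm surface, spread from -0.61 to 2.44 in round spermatids, the other germ-cell ADAM genes sit between 2.17 and 2.72, and the ADAM genes known from other tissues spread around 0.

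Of 13 ADAM genes known mainly from tissues other than the testis, 9 were tested and 1 rose and 3 fell from pachytene spermatocytes to round spermatids. Among all genes tested 34.4% rose and 35.9% fell. *Adam15* rose (1.52, adjusted p = 3.47e-05, edgeR), and *Adam17*, which encodes the protease that sheds tumour necrosis factor (-1.26, adjusted p = 9.54e-06, edgeR), *Adam19* (-1.03, adjusted p = 0.0114, edgeR) and *Adam11* (-0.85, adjusted p = 0.000532, edgeR) fell. In condensing spermatids 4 of the 9 rose and 0 fell, where 28.3% of all genes tested rose and 21.8% fell. *Adam23* (1.73, adjusted p = 0.00639, edgeR), *Adam9* (1.61, adjusted p = 1.36e-05, edgeR) and *Adam10*, which encodes a sheddase of Notch (1.08, adjusted p = 0.000917, edgeR), rose most. The Sertoli and Leydig cell markers given above were higher in the same fractions, and their part in these rises was not tested. Read counts of *Adam19* were low, with 30, 17 and 24 in WT pachytene and 10, 9 and 12 in WT round spermatid libraries. *Adam23* had 7, 11 and 5 counts in the WT pachytene libraries.

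A list of 20 genes whose proteins act in the maturation of ADAM3 or in sperm migration was split in direction. From WT pachytene spermatocytes to round spermatids 9 rose, 6 fell and 5 did not pass, where 34.4% of all genes tested rose and 35.9% fell. Those that rose included the protease genes *Prss37* (2.42, adjusted p = 4.77e-07, edgeR), *Prss55* (2.39, adjusted p = 1.65e-06, edgeR) and *Ace* (2.29, adjusted p = 1.04e-06, edgeR), which encodes angiotensin-converting enzyme. Those that fell included *Tpst2*, a tyrosine sulfotransferase gene (-2.71, adjusted p = 9.87e-07, edgeR), *Tex101*, which encodes a surface glycoprotein of germ cells (-2.27, adjusted p = 7.78e-08, edgeR), and *Canx*, which encodes the chaperone calnexin (-1.23, adjusted p = 7.96e-07, edgeR). In condensing spermatids 9 of the 20 fell, among them *Lypd4* (-0.94, adjusted p = 0.000206, edgeR), the testis disulfide isomerase gene *Pdilt* (-0.93, adjusted p = 0.000259, edgeR) and *Cmtm2a* (-0.66, adjusted p = 0.000647, edgeR). *Tpst2* (1.35, adjusted p = 0.00278, edgeR) and *Tex101* (0.77, adjusted p = 0.00136, edgeR) were the 2 that rose. At this step 21.8% of all genes tested fell and 28.3% rose.

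Between KO and WT, 0 genes of these 3 lists were called in any stage (edgeR). The other germ-cell ADAM list had 10 genes tested in each stage. In pachytene spermatocytes, round and condensing spermatids 7, 7 and 9 ADAM genes of other tissues were tested. Of the ADAM3 maturation genes 19, 18 and 19 were tested. At an unadjusted p under 0.05 the other germ-cell ADAM genes had 1, 0 and 3 in pachytene spermatocytes, round and condensing spermatids, the ADAM genes of other tissues 1, 2 and 1, and the ADAM3 maturation genes 0, 0 and 1. Of all genes tested, 815 of 12236, 753 of 12804 and 870 of 13734 did so. In condensing spermatids all 10 tested genes of the other germ-cell ADAM list had estimates above 0, from 0.05 to 0.31. In round spermatids 6 of these 10 estimates were above 0, and in pachytene spermatocytes 10 of 10. The ADAM genes of other tissues had 7, 5 and 3 estimates above 0 in pachytene spermatocytes, round and condensing spermatids. The ADAM3 maturation genes had 6, 11 and 8. Over all genes tested the median log2 fold changes were 0.007, -0.004 and -0.009. Genes of the other germ-cell ADAM list without overlap between the genotypes numbered 1, 0 and 4 in pachytene spermatocytes, round and condensing spermatids. The ADAM genes of other tissues had 1, 2 and 1, and the ADAM3 maturation genes 0, 1 and 4. The shares of all genes tested were 11.4%, 9.86% and 12.1%.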

How the data were processed

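RNA of 21 libraries was prepared with a stranded total RNA kit after depletion of ribosomal RNA and sequenced as 75-base pairs. Per the submitters' processing notes and the study's methods, the authors aligned the reads to mm10 with STAR 2.7.11b, counted reads within exons on the transcribed strand with HTSeq, without reads aligned to more than 1 place, and deposited raw read counts per gene. Between 34.6% and 57.7% of the counted reads fell in 5 rows without a gene, and these were dropped. Groups were taken from the labels. The 10 genes, the other lists and the markers were chosen with earlier results of these data known.

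Counts were scaled by TMM factors to normalized CPM and tested over all genes with edgeR 4.0.16 (R 4.3.3): quasi-likelihood test, filterByExpr, Benjamini-Hochberg adjustment, threshold 0.05. All 10 genes passed the filter in every comparison. Stage changes were fitted within 1 genotype, KO effects within 1 stage, and interactions on 18 libraries. Intervals of fold changes are 95% intervals from the same fit. Alternatives were DESeq2 size factors, the DESeq2 Wald test (DESeq2 1.42.0), no filter, library size only, 1 fit on 18 libraries, a block for the replicate number, and each library left out. Summing WT round spermatid replicates 2 and 3 and removing a trend on GC content and length were chosen after the data were seen. Transcripts came from GENCODE M21, and translated coding sequences were aligned with MAFFT 7.526. From the other lists at most 3 called genes of at least 1 CPM are named for each direction of a WT stage comparison, by size of the log2 fold change, and the 5 genes with the most similar profile.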

Additional observations from a re-analysis of the deposited data

How the results depend on the processing

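The number of the 10 genes called stayed within 1.5 times in all 155 counts recomputed under the alternatives. For the KO effects and interactions, which are part of the 155, this means only that 0 were called each time, as in the main fit. Of the single fold changes, 1042 kept direction and call, 27 lost a call, 6 gained one and 61 changed sign, none of them called under either setting. With DESeq2 size factors 68 mean levels moved by less than the spread between replicates (in the single KO spermatozoa library, less than its counting interval) and 12 by more. The numbers of the replicates did not pair the samples (correlations of same-numbered libraries from -0.166 to 0.268, over 0.1 for every number in no comparison). With the replicate block 7 genes were called from WT pachytene to round spermatids and 8 from round to condensing spermatids, and 0 between KO and WT, with *Adam1b* at 0.007 in condensing spermatids. With library size only, which moved the median of all genes to -0.201 from WT pachytene to round spermatids, 6 genes were called there, *Adam32* (adjusted p = 0.135, edgeR) and *Adam30* (adjusted p = 0.525, edgeR) were not, *Adam2* was not called from round to condensing spermatids (adjusted p = 0.0855, edgeR), *Adam1b* was at -0.033, and *Adam18* was at -0.149 within the KO. *Adam30* was also lost without a filter (adjusted p = 0.128, edgeR), and its adjusted p ran from 0.0551 to 0.149 in the 8 of 9 fits that left out 1 WT library and lost it. *Adam5* was called from WT round to condensing spermatids by the DESeq2 Wald test (adjusted p = 0.0383), in the fit on all 18 libraries (adjusted p = 0.0439, edgeR) and without WT pachytene replicate 2 or 3. With WT round spermatid replicates 2 and 3 summed, 7 genes were called at each WT step. The depth of 3 libraries a group left intervals of the KO effect as wide as -0.588 to 0.435 (*Adam1a*, pachytene).

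Estimates of KO over WT near 0 changed sign as follows, and the cause was not tested. With the GC and length trend removed, pachytene values were -0.062 for *Adam2*, -0.024 for *Adam3* and -0.063 for *Adam32*, round spermatid values -0.033 for *Adam1a*, -0.006 for *Adam1b*, 0.005 for *Adam3*, 0.01 for *Adam24* and 0.03 for *Adam26a*, and the condensing value of *Adam30* was -0.013. In round spermatids *Adam3* was at 0.004 without a filter and 0.001 in the fit on 18 libraries, and with replicates 2 and 3 summed *Adam1b* was at -0.005, *Adam3* at 0.023, *Adam24* at 0.015 and *Adam26a* at 0.019. Leaving out each library in turn, the pachytene KO effect ran from -0.322 to 0.135 for *Adam1a*, -0.007 to 0.074 for *Adam2*, -0.08 to 0.14 for *Adam3*, -0.016 to 0.307 for *Adam5*, -0.082 to 0.043 for *Adam18* and -0.023 to 0.098 for *Adam32*. In round spermatids it ran from -0.012 to 0.033 for *Adam1a*, -0.02 to 0.113 for *Adam1b*, -0.012 to 0.115 for *Adam2*, -0.052 to 0.054 for *Adam3*, -0.052 to 0.127 for *Adam5*, -0.01 to 0.088 for *Adam18*, -0.135 to 0.057 for *Adam24*, -0.165 to 0.156 for *Adam26a*, -0.074 to 0.095 for *Adam30* and -0.015 to 0.099 for *Adam32*. In condensing spermatids it ran from -0.069 to 0.109 for *Adam1a*, -0.197 to 0.099 for *Adam1b*, -0.115 to 0.149 for *Adam2*, -0.101 to 0.118 for *Adam18* and -0.097 to 0.056 for *Adam30*. The change of *Adam18* from KO pachytene to round spermatids ran from -0.071 to 0.088.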
